A study of Mus musculus with 9 samples.

Results

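Pld4 and Plbd1 are genes of lysosomal proteins whose transcripts differed widely between phagocyte populations of mouse Peyer's patches, which are clusters of lymphoid follicles in the wall of the gut. They are described here with their relatives Pld3, Plbd2, Dnase2a and Dnase1l3. Of these 6 genes, 5 had a transcript cluster (the probes that together measure a gene) that the platform annotation gives to them alone, among 22180 such genes on the array. Dnase2a, the acid nuclease that digests the DNA of engulfed cells, lay only on 2 clusters that also carry another gene's symbol, and it is not analysed here. Pld4 and Plbd1 were chosen because they stood out in C5aR+ LysoDC against LysoMac. Their values against LysoMac are therefore given as a description, with no p-value, and where they enter a count of called genes that count restates the choice. The other 3 were taken in as their relatives.

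The 9 arrays covered 3 sorted populations with 3 arrays each: LysoMac, lysozyme-expressing macrophages, and LysoDC, lysozyme-expressing dendritic cells, either with C5aR on their surface (C5aR+ LysoDC) or without it (C5aR- LysoDC). C5aR is the receptor for the complement fragment C5a. All 3 populations came from patches digested with collagenase and DNase I, depleted of dead cells and enriched for CD11c before sorting, and the labels name no treatment of the mice. The sources used here do not give strain, genotype, age, pooling of animals or the gates of the sort. No label states whether each array had its own animals. The p-values therefore weigh each difference only against the spread among these arrays, which may be technical.

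Pld3 and Pld4 are paralogous exonucleases of the endolysosome that degrade single-stranded nucleic acids, and they are known for limiting the supply of ligands to the endosomal Toll-like receptors. Plbd1 and Plbd2 are a second pair of paralogues, lysosomal proteins of the phospholipase B-like family. Dnase1l3 is a nuclease that phagocytes secrete and that digests DNA in chromatin and in the debris of dying cells. Macrophages and dendritic cells both take up such material, and their lysosomes break down its lipids and nucleic acids.

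The sequence before the transcription start is shown for Pld4 and Plbd1, whose values moved together, and for Pld3, the paralogue of Pld4 whose values ran the other way. Each is the 250 bases before the start that RefSeq gives on GRCm38.p6, read in the direction of the gene. Pld4 lies at chr12:112760405-112760654 on the plus strand, Plbd1 at chr6:136661894-136662143 on the minus strand and Pld3 at chr7:27553219-27553468 on the minus strand. In RefSeq's annotation 209 bases of the Pld4 window, 250 of the Plbd1 window and 11 of the Pld3 window fall inside the gene's own annotated span. Capitals mark the longest run that the Pld4 and Plbd1 windows share and, in Pld3, a match to an interferon response motif.

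Pld4: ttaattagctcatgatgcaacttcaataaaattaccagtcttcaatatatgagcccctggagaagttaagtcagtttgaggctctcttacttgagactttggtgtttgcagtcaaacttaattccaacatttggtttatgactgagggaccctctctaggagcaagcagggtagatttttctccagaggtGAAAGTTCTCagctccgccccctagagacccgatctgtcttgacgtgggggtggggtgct

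Plbd1: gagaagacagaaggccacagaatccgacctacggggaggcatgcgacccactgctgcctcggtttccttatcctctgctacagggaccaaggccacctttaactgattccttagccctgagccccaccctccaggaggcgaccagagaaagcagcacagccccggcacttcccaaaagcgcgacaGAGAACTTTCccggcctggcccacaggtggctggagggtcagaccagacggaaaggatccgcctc

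Pld3: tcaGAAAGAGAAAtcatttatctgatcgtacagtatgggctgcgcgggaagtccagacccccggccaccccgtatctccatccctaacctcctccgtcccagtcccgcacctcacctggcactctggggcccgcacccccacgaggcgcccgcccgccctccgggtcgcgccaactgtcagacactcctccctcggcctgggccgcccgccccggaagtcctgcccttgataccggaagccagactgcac

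The Pld4 and Plbd1 windows shared 10 bases, GAAAGTTCTC in Pld4 and its reverse complement GAGAACTTTC in Plbd1, which 17 of 32851 windows of this length in RefSeq hold on either strand (0.0517%). The run began 60 bases before the start in Pld4 and 65 bases before it in Plbd1. A run of the same length, CACCCCCACG, was shared by the Pld3 and Pld4 windows, again on opposite strands (42 of 32851 windows, 0.128%), whereas Pld3 and Plbd1 shared at most 8 bases. The search for shared runs was chosen after the sequences were seen, and runs of this length occurred both in the pair that moved together and in the pair that did not. Of 4 motifs searched on both strands, the E-box CACGTG (in 6.02% of all windows), the longer lysosomal gene motif TCACGTGA that contains it (0.785%) and the PU.1 motif GAGGAAGT (2.44%) were in none of the 3 windows. The interferon response motif, GAAA and GAAA with any 2 bases between them (2.98%), was in that of Pld3, as GAAAGAGAAA. The Pld4 window was the poorest in G and C, at 45.2%, against 60.8% in Plbd1, 66.4% in Pld3 and a median of 52.4% over all windows.

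The deposited values are log2 expression values, on which 1 unit is a 2-fold difference in signal, with array medians of 3.39 to 3.65. All 5 genes averaged above every array median in every population, so that none was at the floor of the array. Levels of different genes are not compared, because each has its own probes. LysoMac arrays varied most, with a mean variance of 0.179 over clusters against 0.0958 in C5aR+ and 0.0854 in C5aR- LysoDC. LysoMac array 3 correlated more closely with the other populations (mean r = 0.968) than with its own (mean r = 0.954), these being descriptions over clusters. LysoMac array 2 had the lowest mean r of all arrays, 0.948 with its own population and 0.933 with the others. The macrophage markers Mertk, Fcgr1, Adgre1, C1qa, C1qb, C1qc, Cd68 and Csf1r had mean levels of 8.46 to 9.20 in LysoMac, and in the LysoDC arrays 9.02 to 9.71 (C5aR+) and 8.11 to 8.75 (C5aR-). The mean of 7 measured dendritic cell markers was 5.30 to 5.46, 5.84 to 6.0 and 6.81 to 7.17 in the same order. The mean of the macrophage markers was thus high in all 3 populations, also in those labelled dendritic cells, but the genes of the list were uneven. Fcgr1 averaged 4.64 in LysoMac, 7.94 in C5aR+ and 6.46 in C5aR- LysoDC, and Adgre1 averaged 5.87, 7.63 and 6.47. The median difference of C5aR+ LysoDC from LysoMac over the 8 genes was -0.0091, and Mertk differed by -0.78.

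**Figure D1:**
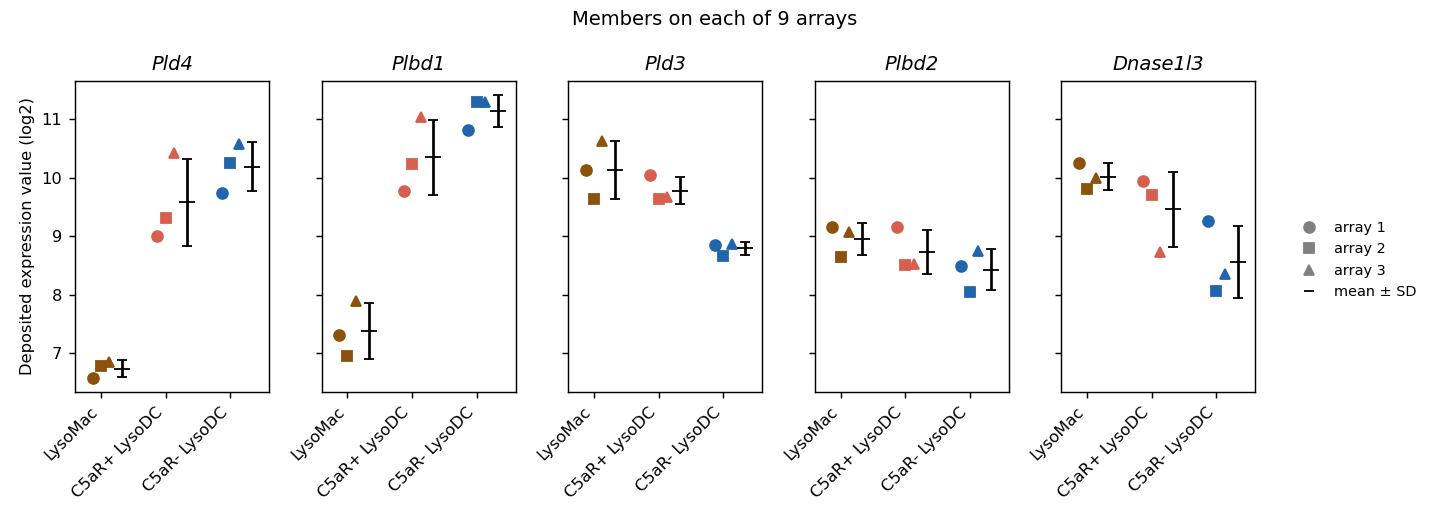
Deposited log2 expression values of Pld4, Plbd1, Pld3, Plbd2 and Dnase1l3 (vertical axis) on each array of LysoMac, C5aR+ LysoDC and C5aR- LysoDC; marker shapes stand for array numbers and bars for the mean ± SD of 3 arrays. The LysoMac arrays of Pld4 (6.58 to 6.85) and Plbd1 (6.95 to 7.89) lie below all LysoDC arrays, while Pld3 and Dnase1l3 are lowest in C5aR- LysoDC.

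Pld4 had values of 6.58, 6.78 and 6.85 on the 3 LysoMac arrays, 9.0, 9.32 and 10.42 on those of C5aR+ LysoDC and 9.74, 10.25 and 10.58 on those of C5aR- LysoDC. All 6 LysoDC arrays lay above all LysoMac arrays, with a gap of 2.15 between LysoMac and C5aR+ LysoDC, and the LysoDC populations overlapped. Of all clusters, 4.03% lay higher without overlap in C5aR+ LysoDC and 7.28% in C5aR- LysoDC, from which nothing is read, since the gene was chosen on this contrast. The means were 6.74 ± 0.14, 9.58 ± 0.74 and 10.19 ± 0.42 (SD, n = 3). Against LysoMac the difference was 2.84 ± 0.35 (SE) in C5aR+ LysoDC, or 7.17-fold, and 3.46 ± 0.35 in C5aR- LysoDC, or 10.98-fold. Among all 33793 clusters these were the 31st and the 38th largest positive differences. Between the LysoDC populations Pld4 differed by -0.61 ± 0.35 (limma, adjusted p = 1, unadjusted p = 0.112), C5aR+ having the lower mean; this comparison shares its C5aR+ arrays with the one the gene was chosen on. Without C5aR+ LysoDC array 3, the highest of its population, that difference was -1.03 and did not pass either (adjusted p = 0.346).

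Plbd1 followed the same order. LysoMac arrays stood at 7.31, 6.95 and 7.89, C5aR+ LysoDC arrays at 9.77, 10.23 and 11.04 and C5aR- LysoDC arrays at 10.82, 11.30 and 11.30. As for Pld4, LysoMac was apart from both LysoDC populations, and C5aR+ array 3 was the only array of its population within the range of C5aR- LysoDC. The means were 7.38 ± 0.47, 10.35 ± 0.64 and 11.14 ± 0.28 (SD, n = 3). The differences from LysoMac were 2.97 ± 0.34 (SE) or 7.82-fold in C5aR+ LysoDC and 3.76 ± 0.34 or 13.5-fold in C5aR- LysoDC, the 27th and 26th largest of all clusters. C5aR+ and C5aR- LysoDC differed by -0.79 ± 0.34 (limma, adjusted p = 0.882, unadjusted p = 0.0460), which became -1.14 without C5aR+ array 3 (adjusted p = 0.399). As for Pld4, this comparison shares its C5aR+ arrays with the one the gene was chosen on.

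Pld3, the paralogue of Pld4, ran in the opposite direction. Its values were 10.13, 9.63 and 10.63 in LysoMac, 10.05, 9.63 and 9.67 in C5aR+ LysoDC and 8.85, 8.66 and 8.87 in C5aR- LysoDC. All C5aR- arrays lay at least 0.76 below every array of the other populations, which overlapped each other. Pld3 fell by 1.34 ± 0.24 (SE, n = 3 per population) on the log2 scale from LysoMac to C5aR- LysoDC, a 2.53-fold lower signal (limma, adjusted p = 0.0347). It was 0.99 ± 0.24 higher in C5aR+ than in C5aR- LysoDC, a difference that did not pass over all clusters (adjusted p = 0.296, unadjusted p = 0.00269). C5aR+ LysoDC and LysoMac differed by -0.35 ± 0.24 (adjusted p = 0.812). The call against LysoMac did not hold after median centring of the arrays (-1.26, adjusted p = 0.0767), in the fit of the 2 populations alone (adjusted p = 0.106) and without LysoMac array 1 (adjusted p = 0.129). Leaving out C5aR+ LysoDC array 1, 2 or 3 gave adjusted p = 0.0513, 0.0673 and 0.0509, and leaving out C5aR- LysoDC array 1, 2 or 3 gave 0.0892, 0.156 and 0.0909, while the difference stayed between -1.59 and -1.09 in the 21 alternatives tried.

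Plbd2, the paralogue of Plbd1, varied least. Its values were 9.15, 8.64 and 9.07 in LysoMac, 9.16, 8.51 and 8.53 in C5aR+ LysoDC and 8.49, 8.05 and 8.74 in C5aR- LysoDC, and all 3 populations overlapped. Its differences from LysoMac were -0.22 ± 0.25 (SE) in C5aR+ LysoDC and -0.53 ± 0.25 in C5aR- LysoDC (limma, adjusted p = 0.857 and 0.403, the latter 0.0380 with array weights), and it differed by 0.31 ± 0.25 between the LysoDC populations (adjusted p = 1).

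Dnase1l3 had values of 10.26, 9.81 and 9.99 in LysoMac, 9.95, 9.70 and 8.74 in C5aR+ LysoDC and 9.26, 8.07 and 8.35 in C5aR- LysoDC. LysoMac and C5aR- LysoDC did not overlap, with a gap of 0.55, whereas C5aR+ LysoDC overlapped both, its array 3 lying within the C5aR- range. The difference of C5aR- LysoDC from LysoMac was -1.46 ± 0.37 (SE), which did not pass (limma, adjusted p = 0.112, unadjusted p = 0.00326). It passed with the array number fitted as a replicate block (adjusted p = 0.0420) and with array weights (-1.68, adjusted p = 0.00586). That of C5aR+ LysoDC was -0.56 ± 0.37 (adjusted p = 0.811) and shrank to -0.20 without array 3. Between the LysoDC populations the difference was 0.90 ± 0.37 (adjusted p = 0.824, unadjusted p = 0.0369).

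**Figure D2:**
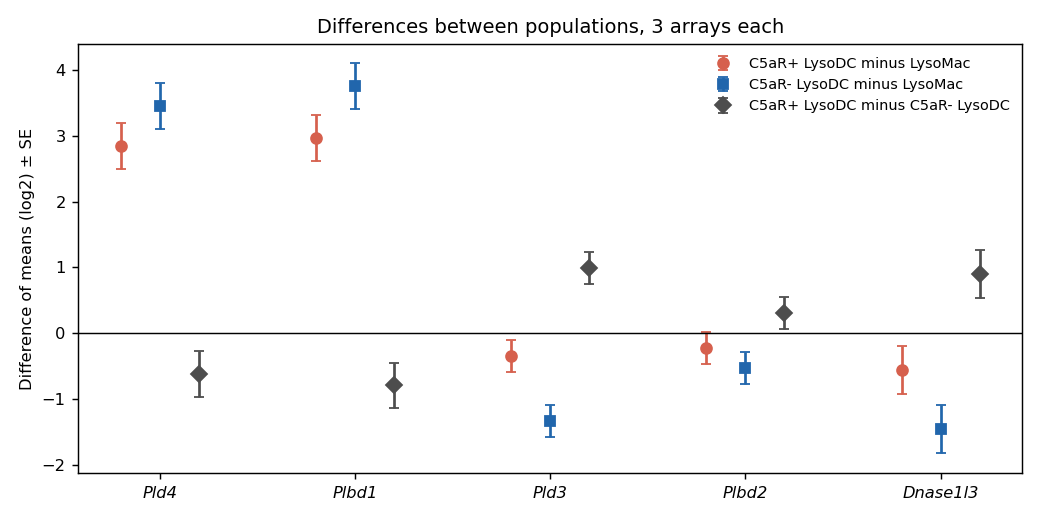
Differences of means between populations (log2, vertical axis) with the SE of the fit, for each gene and each of the 3 comparisons, 3 arrays per population. Pld4 and Plbd1 lie 2.84 to 3.76 above LysoMac in both LysoDC populations, whereas Pld3, Plbd2 and Dnase1l3 lie between -0.22 and -1.46.

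Set against all clusters, the counts were as follows. In C5aR+ LysoDC against LysoMac, 17 of 33793 clusters passed, all of them higher (0.0503%). Pld4 and Plbd1 are among them, as their choice fixed, and Pld3, Plbd2 and Dnase1l3 did not pass. Neither Pld4 nor Plbd1 stayed among the called clusters without LysoMac array 1 or 2, C5aR+ LysoDC array 2 or any 1 of the C5aR- LysoDC arrays, and 1 of them did without LysoMac array 3 or C5aR+ LysoDC array 3. In C5aR- LysoDC against LysoMac, 1 of the 3 relatives, Pld3, was lower, where 0.405% of all clusters were called lower, and 2 of the 3, Pld3 and Dnase1l3, were lower without overlap, where 6.88% of clusters were. In C5aR+ against C5aR- LysoDC, 0 of the 5 genes passed in limma, where 0.101% of clusters did. There 3 of the 5, Pld3, Dnase1l3 and Plbd1, had an unadjusted p under 0.05, where 5.46% of clusters did. Plbd1 was chosen on C5aR+ LysoDC arrays that this comparison shares, so nothing is read from that count. Pld3 alone showed no overlap, where 5.12% of clusters were higher without overlap.

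In all 5 genes the C5aR+ LysoDC mean lay between those of LysoMac and C5aR- LysoDC, as it did in 47.2% of all clusters. The means rose from LysoMac over C5aR+ to C5aR- LysoDC for Pld4 and Plbd1, as in 18.9% of clusters, and fell in that order for Pld3, Plbd2 and Dnase1l3, as in 28.3%. The place between them was not the same for each gene. Pld4 and Plbd1 were chosen for a C5aR+ LysoDC mean far from LysoMac, which by itself places them towards the C5aR- end, so nothing is read from their contrast with the relatives. Counted from LysoMac at 0% to C5aR- LysoDC at 100%, C5aR+ LysoDC stood at 82.2% for Pld4 and 79.0% for Plbd1, nearer to C5aR- LysoDC. For Plbd2, Dnase1l3 and Pld3 they stood at 42.3%, 38.2% and 26.1%, nearer to LysoMac. Without C5aR+ LysoDC array 3 the values were 70.1%, 69.7%, 23.1%, 13.4% and 21.8% in the same order of genes, so that each moved towards LysoMac.

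The paralogues were also set against each other within each array, which removes any effect that raises or lowers a whole array. Relative to the LysoMac mean, the difference Pld4 minus Pld3 was 2.35, 3.08 and 4.15 on the C5aR+ LysoDC arrays and 4.29, 4.98 and 5.10 on the C5aR- LysoDC arrays, against -0.15, 0.54 and -0.39 in LysoMac itself. The 3 populations did not overlap in this measure, the nearest C5aR+ and C5aR- LysoDC arrays standing at 4.15 and 4.29. How often other gene pairs do the same was not counted, so nothing is read from it. Against LysoMac the mean difference of the pair was 3.19 ± 0.59 (SE, n = 3) in C5aR+ LysoDC, or 9.13-fold. It was 4.79 ± 0.38 in C5aR- LysoDC, or 27.7-fold, and the LysoDC populations differed by -1.60 ± 0.58. For Plbd1 minus Plbd2 the shift was 3.19 ± 0.59 in C5aR+ LysoDC and 4.29 ± 0.34 in C5aR- LysoDC, 9.14-fold and 19.5-fold. The arrays read 2.18, 3.30 and 4.09 in C5aR+ and 3.91, 4.83 and 4.13 in C5aR- LysoDC, which overlapped. These shifts are descriptions, since Pld4 and Plbd1 were chosen on their values, and a ratio within an array shows unequal change of the pair, not which gene moved.

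**Figure D3:**
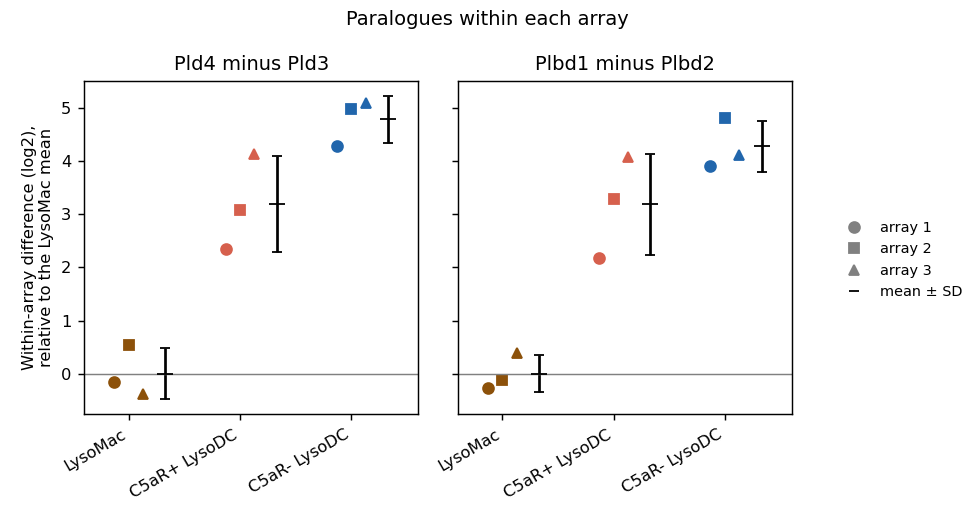
Within-array log2 difference of Pld4 minus Pld3 and of Plbd1 minus Plbd2, relative to the LysoMac mean (vertical axis), for each array; bars are the mean ± SD of 3 arrays. For Pld4 and Pld3 the populations do not overlap, the nearest C5aR+ and C5aR- LysoDC arrays being at 4.15 and 4.29. How often other gene pairs do the same was not counted, and Pld4 was chosen on its values. For Plbd1 and Plbd2 the C5aR+ LysoDC array at 4.09 lies within the range of C5aR- LysoDC.

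The genes nearest in pattern were sought among 13313 other genes whose mean over the 9 arrays reached the lowest array median, by the root mean square difference of the 9 values after each gene was centred on its own mean. The gene nearest to Pld4 was Plbd1, and the gene nearest to Plbd1 was Pld4, at 0.27 on the log2 scale. Both were chosen for the same large difference of C5aR+ LysoDC from LysoMac, so that part of this closeness is built in. Next to Pld4 came St3gal1, a sialyltransferase, at 0.37, and Clec4b1, a C-type lectin, at 0.42. Next to Plbd1 came Mmp12, the macrophage elastase, at 0.37, and St3gal1 at 0.46. Mmp12 averaged 4.39 in LysoMac, 7.57 in C5aR+ and 8.18 in C5aR- LysoDC, and St3gal1 averaged 5.83, 8.04 and 8.82. Clec4b1 averaged 2.72 in LysoMac, below every array median, and 4.80 and 5.96 in the LysoDC populations. Nearest to Pld3 were Hpse, the enzyme that cleaves heparan sulphate, at 0.11, Ddx60 at 0.13 and Ampd3, an AMP deaminase, at 0.15. Hpse averaged 9.13 in LysoMac, 8.67 in C5aR+ and 7.68 in C5aR- LysoDC. Nearest to Dnase1l3 were Il22ra2, a soluble inhibitor of interleukin-22, at 0.17, the myeloid transcription factor gene Cebpa at 0.19 and Mvb12b at 0.21. Cebpa averaged 8.85, 8.30 and 7.46 in the same order of populations. The 9 values of a gene share arrays and sort with those of every other gene, and genes with small differences lie close to each other by this measure.

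**Figure D4:**
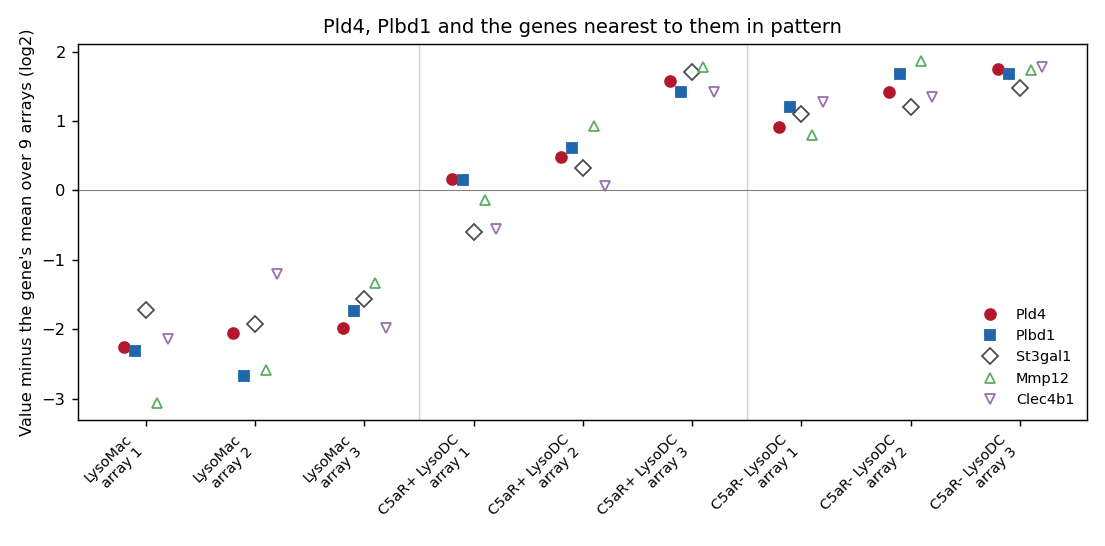
Values of Pld4, Plbd1 (filled) and of St3gal1, Mmp12 and Clec4b1 (open), each minus the gene's mean over 9 arrays (log2, vertical axis), by array. All 5 genes are below their mean on every LysoMac array and above it on every C5aR- LysoDC array, and C5aR+ LysoDC array 3 lies highest of its population for each.

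Of 74 genes in 5 lists of related function, 65 were measured. In C5aR- LysoDC against LysoMac 1 of them rose, 4 fell and 60 did not pass, where 1.13% of all clusters were called higher and 0.405% lower. The median difference of the 65 genes was -0.29, against -0.059 over all clusters. In C5aR+ LysoDC against LysoMac and in C5aR+ against C5aR- LysoDC 0 of the 65 passed in limma, and 3 and 11 had an unadjusted p under 0.05 (6.19% and 5.46% of all clusters). In C5aR- LysoDC against LysoMac 17 did, and 13.2% of all clusters. The medians were 0.0041 and 0.22, against -0.035 and 0.015 over all clusters.

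Tlr7, the endosomal receptor for single-stranded RNA, is on the list of genes of endosomal and cytosolic nucleic acid sensing. It had values of 8.19, 7.49 and 8.31 in LysoMac, 7.97, 6.95 and 7.81 in C5aR+ LysoDC and 6.35, 5.19 and 6.09 in C5aR- LysoDC. Like Pld3, it was apart only in C5aR- LysoDC, where it fell by 2.12 ± 0.37 (SE) from LysoMac (limma, adjusted p = 0.0305). This call was lost without LysoMac array 1 (adjusted p = 0.132) and without C5aR- LysoDC array 2 or 3 (0.112 and 0.0708), with 1 weight per population (0.0864) and in the fit of the 2 populations alone (0.0685). Between the LysoDC populations Tlr7 differed by 1.70 ± 0.37 (adjusted p = 0.213). Tlr3, the receptor for double-stranded RNA, fell by 0.87 ± 0.17 to C5aR- LysoDC (adjusted p = 0.0396), from means of 4.66 in LysoMac and 4.63 in C5aR+ LysoDC to 3.79. Its call was lost in 13 of 21 alternatives, among them the omission of any of the 9 arrays (adjusted p = 0.0507 to 0.117). Tlr9, the DNA receptor whose ligands Pld3 and Pld4 degrade, was looked up after its values were seen and averaged 8.23, 8.47 and 7.94 in LysoMac, C5aR+ and C5aR- LysoDC, with overlap between all populations. Of the 15 measured genes of this list, the 13 other than Tlr7 and Tlr3 did not pass in any comparison.

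Among genes of nucleic acid breakdown and transport, 1 of 13 passed. Ada, adenosine deaminase, which handles nucleosides, had values of 8.35, 8.32 and 9.29 in LysoMac, 8.36, 7.73 and 7.34 in C5aR+ LysoDC and 6.56, 6.27 and 6.45 in C5aR- LysoDC. C5aR- arrays lay below all others, and Ada fell by 2.22 ± 0.31 (SE) from LysoMac to C5aR- LysoDC (limma, adjusted p = 0.0118, or 0.0726 without C5aR- LysoDC array 2). Of the sorting and transcription factor list, Tfec, a relative of the lysosomal gene regulator Tfeb, fell by 1.79 ± 0.25 to C5aR- LysoDC (adjusted p = 0.0109, or 0.0558 without C5aR- LysoDC array 2). Sort1, the sorting receptor sortilin, rose by 2.17 ± 0.43 there (adjusted p = 0.0458), a call lost in 9 of 21 alternatives. These were the omission of any LysoMac array (adjusted p = 0.126, 0.0959 and 0.0612 without arrays 1, 2 and 3), of C5aR+ LysoDC array 2 (0.0905) and of C5aR- LysoDC array 1 or 2 (0.135 and 0.201), 1 weight per population (0.126), the replicate block (0.0608) and a fit without the third population (0.0643). The second, dimmer cluster of Sort1 differed by -0.080.

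None of the 16 lysosomal lipid hydrolases and cofactors passed in limma in any comparison, and 3 had an unadjusted p under 0.05 in C5aR- LysoDC against LysoMac. In that comparison 14 of the 16 differences were below 0, as were 58.7% of those of all clusters, with a median of -0.38. In C5aR+ LysoDC against LysoMac 6 of the 16 were below 0 (56.1% of all clusters), with a median of 0.084. In C5aR+ against C5aR- LysoDC 1 of the 16 was below 0 (46.6% of all clusters), with a median of 0.50. The brightest were Psap, the precursor of the saposins, and Gm2a, the activator of ganglioside breakdown. Psap averaged 12.33, 12.40 and 12.11 in LysoMac, C5aR+ and C5aR- LysoDC, and Gm2a averaged 10.55, 10.67 and 10.79. Of the 9 other phospholipase D and DNase family genes 0 passed in limma in any comparison, with 2 at an unadjusted p under 0.05 in C5aR- LysoDC against LysoMac. The brightest were Dnase1l1, at 7.06, 7.21 and 6.37, and Pld2, at 5.42, 5.51 and 5.44. The differences of these 9 genes between C5aR- LysoDC and LysoMac ran from -0.69 to 0.020, against 3.46 for Pld4.

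**Figure D5:**
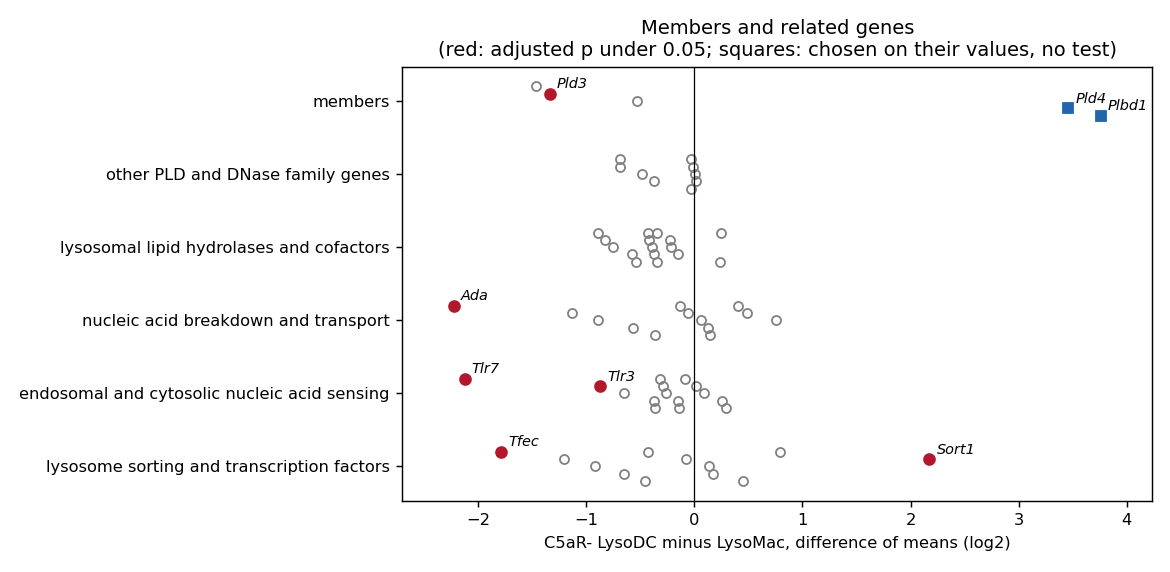
Difference of C5aR- LysoDC from LysoMac (log2, horizontal axis) for the 5 genes described and for the 65 related genes by list; red points passed limma's test, open points did not, and squares mark Pld4 and Plbd1, whose calls are not shown because they were chosen on their values. Sort1, at 2.17, is the related gene nearest to Pld4 and Plbd1, which lie at 3.46 and 3.76.

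Markers of some other cells were higher where Pld4 and Plbd1 were high, and others were not. For the counts below, 1.13% of all clusters were called higher and 0.405% lower in C5aR- LysoDC against LysoMac. Pld4 is also known from B cells and plasmacytoid dendritic cells. The mean of the 7 measured B cell markers, of 8 listed, was 4.07 to 4.12 on LysoMac arrays, 4.54 to 4.97 on C5aR+ LysoDC arrays and 4.92 to 5.02 on C5aR- LysoDC arrays, with array 3 again the highest of C5aR+ LysoDC. Of this list 2 genes rose from LysoMac to C5aR- LysoDC, Cr2 by 1.64 and Blk by 1.82 (limma, adjusted p = 0.00290 and 0.00841), while Ms4a1, which encodes CD20, averaged 3.47, 3.71 and 4.17, close to the array medians. Cd79b, the brightest of the list, ran the other way, with means of 6.96, 6.78 and 6.25 (adjusted p = 0.428 for C5aR- LysoDC against LysoMac). Cd79a, Fcer2a and Pax5 did not pass there either, with differences of 1.21, 0.82 and 0.69. In C5aR+ LysoDC against LysoMac 0 of the 7 B cell markers passed in limma, with a median difference of 0.79. The mean of 7 plasma cell markers was 5.01 to 5.64, 5.88 to 6.57 and 5.99 to 6.61, and of this list Jchain rose by 3.10 and Irf4 by 1.95 to C5aR- LysoDC (limma, adjusted p = 0.00596 and 0.0331). The other 5 did not pass there, with differences of -0.83 for Sdc1, 0.0067 for Prdm1, 0.19 for Derl3, 0.28 for Xbp1 and 1.11 for Mzb1. Stromal markers (8 genes) averaged 3.91 to 4.25 on LysoMac arrays, 4.51 to 4.83 in C5aR+ and 4.77 to 4.93 in C5aR- LysoDC. Of these, 2 of 8 were called higher in C5aR- LysoDC than in LysoMac, Lum by 2.77 and Kdr by 0.82. The others did not pass, with differences of 1.25 for Dcn, 1.24 for Pecam1, 0.092 for Col1a1, -0.035 for Col1a2, -0.16 for Col3a1 and -0.30 for Cdh5. Markers of epithelial and M cells averaged 3.48 to 3.79, 3.58 to 3.76 and 4.50 to 4.73, and overlapped between LysoMac and C5aR+ LysoDC. Of these, 3 of 8 were called higher in C5aR- LysoDC than in LysoMac, Gp2 by 3.86, Cdh1 by 1.75 and Epcam by 1.54. The others did not pass, with differences of 0.84 for Cldn7, 0.60 for Krt8, -0.12 for Muc2, -0.30 for Krt20 and -0.49 for Vil1. T cell markers (4.01 to 4.72, 3.98 to 4.39 and 4.03 to 4.23) and neutrophil markers (2.69 to 3.27, 2.92 to 2.96 and 2.79 to 2.88) overlapped between LysoMac and both LysoDC populations. In each of these lists 0 of 7 passed in limma in any comparison, and at most 1 had an unadjusted p under 0.05. Of the macrophage markers Mertk, C1qb and C1qc fell from LysoMac to C5aR- LysoDC, by 2.13, 0.99 and 1.12 (limma, adjusted p = 0.00742, 0.0330 and 0.0164). Fcgr1 and Adgre1 differed there by 1.81 and 0.60 (limma, adjusted p = 0.368 and 0.709), C5aR- LysoDC having the higher means. Of the dendritic cell markers, 3 of 7 were called higher there, Flt3 by 3.46, Itgae by 3.82 and Ccr7 by 3.86. The others did not pass, with differences of 1.05 for Zbtb46, 0.31 for Itgax, 0.10 for Xcr1 and -1.17 for Cd209a. The part of these cells in the values of the genes described was not tested. In bulk samples fewer cells of a type and less RNA per cell cannot be told apart. The mean of the 7 measured markers of plasmacytoid dendritic cells overlapped between all populations (5.37 to 6.12, 5.68 to 5.85 and 5.5 to 6.03). Siglech averaged 5.69 in LysoMac, 5.06 in C5aR+ and 4.96 in C5aR- LysoDC. In C5aR- LysoDC against LysoMac 0 of the 7 passed in limma, and the genes were uneven. Tcf4, Spib and Cox6a2 differed by 0.96, 0.48 and 0.21. Siglech, Ccr9, Bst2 and Ly6d differed by -0.73, -0.54, -0.34 and -0.060.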

How the data were processed

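Expression was measured on Affymetrix whole-transcript arrays from amplified RNA of sorted cells. The deposited values are log2 expression values, made by the authors with RMA and Affymetrix Power Tools, per the submitters' processing notes, which name no version or setting. RMA normalizes between arrays and so can remove shifts common to all genes. Samples were grouped by title. For C5aR- LysoDC arrays 2 and 3 the source label gives another receptor than the title; C5ar1, the gene of C5aR, averaged 3.01 in C5aR- LysoDC, 4.68 in C5aR+ LysoDC and 4.60 in LysoMac, and C5aR- LysoDC overlapped neither of the others.

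The linear model (limma 3.58.1, R 4.3.3) had a mean for each population, was fitted to the 9 arrays together, leaving 6 residual degrees of freedom, and used moderated two-sided tests with Benjamini-Hochberg adjustment over 33793 clusters, at 0.05, without a filter. The fit was checked on simulated data with independent arrays and, for each cluster, the same spread in every population. The greater spread of the LysoMac arrays and deviations shared between arrays are not covered by that check. Only clusters with 1 symbol are named, the brightest for each gene. Named are the members, up to 4 genes per related list and comparison that passed (otherwise the 2 brightest), and the 3 genes nearest in pattern to members whose means span at least 1. The members and lists were chosen with earlier results of these data known. Same-numbered arrays of C5aR+ LysoDC and LysoMac deviated together (correlation across clusters 0.16, 0.26 and 0.41), for which no label gives a reason; in the other comparisons not every r was over 0.1. Alternatives were a replicate block, other normalizations, a filter on dim clusters, other variance models and weights, other rules for clusters, fits of 2 populations and leaving out each array. The median SE of a difference was 0.20, and the number of arrays limits the precision. Dnase1l3 and Plbd2 have no entry in the table of sequences.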

Additional observations from a re-analysis of the deposited data

How the results depend on the processing

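No member changed its direction in any comparison under the 21 alternatives. Counts of members past the threshold include Pld4 and Plbd1, which were chosen on C5aR+ LysoDC against LysoMac, so that they restate the choice and show no stability. The number was 2, Pld4 and Plbd1, in C5aR+ LysoDC against LysoMac, but 0 with 1 weight per population or in the fit of the 2 populations alone, and 0 to 2 when 1 array was left out. It was 3, the same genes and Pld3, in C5aR- LysoDC against LysoMac, which shares the LysoMac arrays, 5 with array weights and 2 to 3 when 1 array was left out, and 0 between the LysoDC populations throughout. The 5 related genes past the threshold in C5aR- LysoDC against LysoMac became 9 with quantile normalization, 10 with cyclic loess, 21 with array weights (18 of them lower), 2 with 1 weight per population, 2 in the fit of the 2 populations alone and 0 to 4 when 1 array was left out. With array weights 1 related gene, Dnase1l2, was lower in C5aR+ LysoDC than in LysoMac. With the replicate block, Tlr7 was higher in C5aR+ than in C5aR- LysoDC (1 related gene in place of 0) and Dnase1l3 was lower in C5aR- LysoDC than in LysoMac (adjusted p = 0.0420), while Sort1 lost its call (adjusted p = 0.0608); no other call of a named gene changed. The causes were not tested.

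Differences near 0 that were not called turned their sign in some settings. In C5aR+ LysoDC against LysoMac these were Tlr3 with median centring (0.027), array weights (0.15) and without LysoMac array 2 (0.036) or 3 (0.0054) or C5aR+ LysoDC array 1 (0.068); over all single arrays left out it ranged from -0.13 to 0.068. Dnase1l1 gave -0.021 with quantile normalization, -0.026 with cyclic loess and -0.19 without LysoMac array 2. Gm2a gave -0.068, -0.090 and -0.042 in the same settings. Psap gave -0.13 with cyclic loess, -0.041 without LysoMac array 2 and -0.058 without C5aR+ LysoDC array 3, and Pld2 gave -0.010 with array weights and -0.28 without LysoMac array 2. The highest values with 1 array left out were 0.46 for Dnase1l1, 0.30 for Gm2a, 0.19 for Psap and 0.41 for Pld2. In C5aR- LysoDC against LysoMac Pld2 gave -0.031 with quantile normalization, -0.070 with cyclic loess, -0.074 with array weights and -0.35 to 0.34 with 1 array left out, the lowest without LysoMac array 2. The within-array contrasts of paralogues, tried without each array and with both normalizations after the data were seen, moved by less than the spread between arrays. With 3 arrays, leaving out 1 can move a population mean by no more than its SD, so no stability is read from this.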
